A study of Sus scrofa with 2 samples.

Results

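The genes described here are the cytokines, chemokines, their receptors and signalling proteins, and the complement components that were read in the biceps femoris muscle of newborn cloned piglets. They were chosen by the wording of the protein name that the deposited tables give each gene: the name had to hold interleukin, chemokine, C-C motif, C-X-C motif, tumor necrosis factor, colony-stimulating factor, macrophage or a complement component or factor. Names with interferon, interleukin-6 receptor or enhancer-binding factor were left out, which removed 4 entries. The rule found 136 of the 12535 genes with a read in either library, and used no measured value. By role they were 36 ligands, 57 receptors and soluble binding proteins, 14 signalling and TNF-regulated proteins, 16 complement genes and 13 genes that only share a word of the name, such as CAPG, the macrophage-capping protein, which binds actin.

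Each group was 1 RNA-seq library made from pooled RNA, so no difference below has a replicate check, and every FDR compares the 2 libraries and not the conditions. The abnormal cloned group was a pool of 3 piglets of the phenotype labelled developmental failure, all cloned from embryonic fibroblasts of 1 male large white pig. The normal cloned group was a pool of 3 piglets in the sample labels and of 4 in the study's methods, which give 2 piglets from the same embryonic fibroblasts and 2 from ear fibroblasts of another male large white pig. All piglets were produced by somatic cell nuclear transfer, delivered by caesarean section and sampled on day 1 after birth. Donor cell and phenotype therefore cannot be told apart.

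Cytokines are secreted proteins that cells use to signal to each other in immunity, growth and repair, and chemokines are the small cytokines that direct the movement of leukocytes. Receptors of the interleukin-1 and TNF families pass their signal through kinases such as IRAK1 and IRAK4 to the IKK complex, which releases the transcription factor NF-kB. Complement is a chain of plasma proteases and binding proteins: C1q recognises a target and C3 is the component on which the pathways meet. In skeletal muscle many of these genes are known from the resident macrophages, fibroblasts and vessel cells between the fibres, and in bulk RNA fewer cells of a type and less RNA per cell cannot be told apart.

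The abnormal library held 6.38 M uniquely mapped reads and the normal one 6.52 M, of which mitochondrial transcripts took 36.0% and 46.1%. These totals are the reads summed over the listed genes, and the paper states a larger number of unique reads for each group. Levels are given as RPKM, the reads of a transcript scaled to its length and to the depth of the library, and differences as the log2 of the RPKM of the abnormal over that of the normal library. The median of this log2 ratio was 0.36 over the 7493 genes that both libraries covered with 10 reads or more, so a typical gene stood above 0. Muscle genes were abundant in both libraries, with the 5 fibre markers found of 10 summing to 45390 RPKM in the abnormal and 41530 RPKM in the normal library. ACTA1 alone gave 42260 and 37390 RPKM of these sums. The 5 markers did not move together, as 2 were higher and 3 lower in the abnormal library. The slow myosin MYH7 had 120 reads in the abnormal library against 1407 in the normal one.

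The members were shallow. They took 5319 reads of the abnormal and 5067 of the normal library, which is 0.0834% and 0.0778% of all reads. Their median was 16.5 reads summed over both libraries, against 53 reads for all genes. In all, 107 members had reads in both libraries, 17 in the abnormal library alone and 12 in the normal library alone, and 22 members rested on 1 read. The largest count opposite a 0 was 8 reads. A gene counted as differentially expressed (a DEG, or called) when the Audic-Claverie test of its reads gave a Benjamini-Hochberg FDR of at most 0.001 and its log2 ratio was at least 1 in size. A gene with no read in one library needed 13 reads in the other to reach that FDR, a gene at a ratio of 4 needed 34 reads, and a gene at a ratio of 2 needed 112 reads when it was lower and 115 when it was higher. By their reads 62 members could not be called at any ratio, 44 were deep enough for a ratio of 4 and 22 for a ratio of 2. The 73 members with fewer than 20 reads in all, 19 ligands, 36 receptors, 3 signalling and 7 complement genes and 8 genes that share only a word, included none of the calls. Where counts are paired below, the abnormal library comes first.

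**Figure D1:**
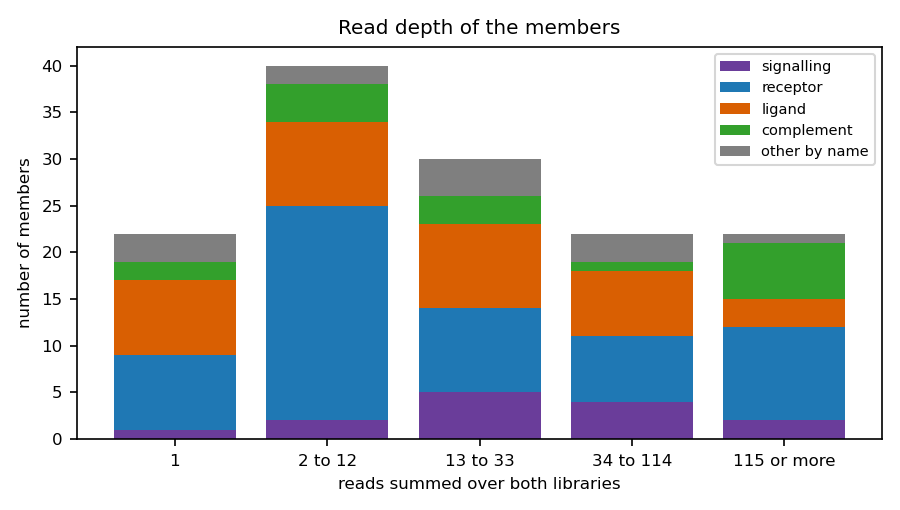
Number of members (vertical axis) by reads summed over both libraries (horizontal axis), coloured by role. Of the 136 members 22 had a single read and 22 had 115 reads or more.

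Of the 136 members 5 were up-regulated and 4 down-regulated in the abnormal cloned group. Among all 12535 genes 12% were called up and 1.45% called down, so the members' shares of 3.68% and 2.94% lay below the background for higher and above it for lower genes. The up-regulated members were IL13RA1, LITAF, ACKR4, IRAK1 and NFIL3, of which 2 are receptors and 3 act in or below cytokine signalling. The down-regulated members were CCL2, C3, a C1QB-like gene and C1QTNF3. Taken over the 63 members with at least 20 reads the shares were 7.94% up and 6.35% down, beside 18.5% and 2.19% of all genes with at least 20 reads. The 2 sets share that minimum but not their depth. The median was 61 reads for the 63 members and 148 reads for those genes, so depth limited calls more among the members. Among these 63 members, 31 were higher and 32 lower in the abnormal library, and the median log2 ratio was -0.02. Over the 8140 genes with at least 20 reads 68.9% were higher in the abnormal library and the median was 0.39. The median of the members thus lay below that of those genes. After the median shift of 0.36 was removed, 22 of the 63 were higher and 41 lower, and under that scaling the calls over the members were 4 up and 9 down, while those over all genes went from 1510 up and 182 down to 812 up and 498 down.

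**Figure D2:**
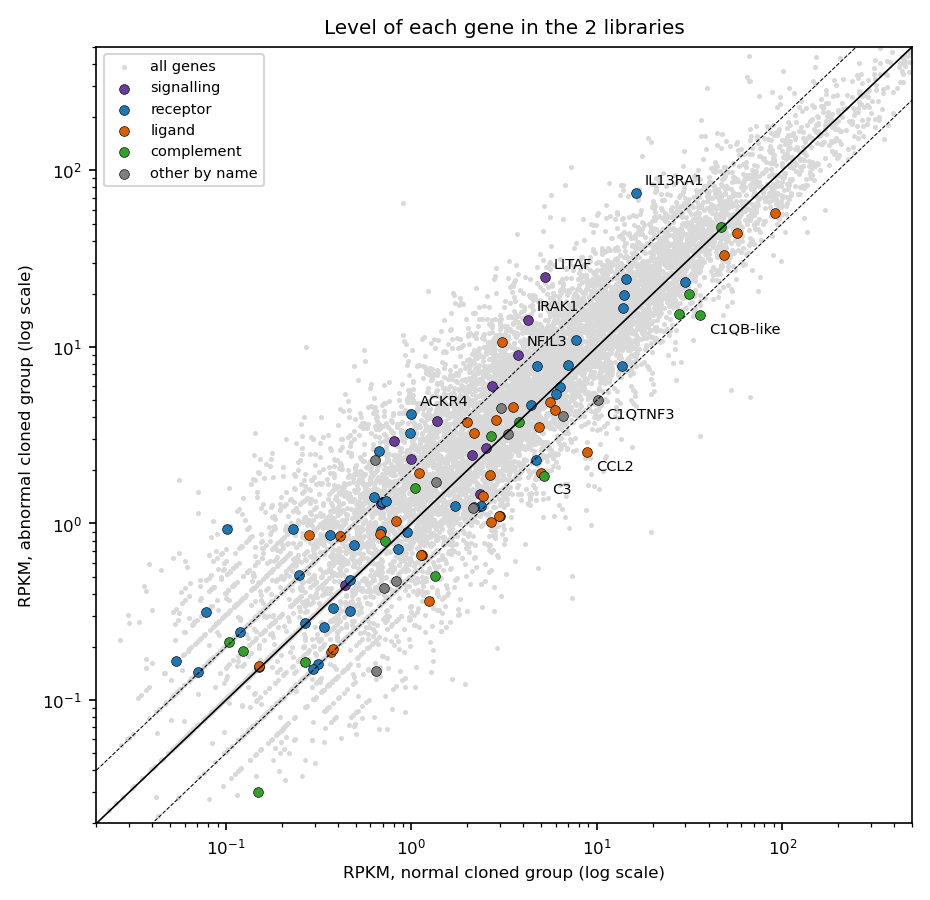
RPKM of each gene in the normal (horizontal axis) and abnormal cloned group (vertical axis), both on a log scale, for genes with reads in both libraries; grey points are all genes, coloured points the members by role, the solid line equal levels and the dashed lines a ratio of 2. IL13RA1, at 74.4 against 16.3 RPKM, is the most abundant member above the upper dashed line.

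The splits by role are descriptions, since a difference between roles was not tested. Of 11 signalling members with at least 20 reads 10 were higher in the abnormal library, with a median log2 ratio of 1.22. The 21 receptors split into 11 higher and 10 lower, with a median of 0.09. The 17 ligands were 6 higher and 11 lower with a median of -0.44, and the 9 complement genes were 3 higher and 6 lower with a median of -0.65. With the 0.36 shift removed the splits became 8 higher and 3 lower for signalling, 8 and 13 for receptors, 5 and 12 for ligands, and 0 and 9 for complement. On the deposited scale a log2 ratio of at least 1 was found in 7 of the 11 signalling members and in 25.4% of all genes with at least 20 reads. The 7 include both overlapping entries of ADAM17, described below. A log2 ratio of at most -1 was found in 3 of the 9 complement genes and in 4.31% of all genes with at least 20 reads. With the shift removed these became 4 signalling members beside 1234 of 8140 genes, and 5 complement genes beside 796 of 8140. Under that scaling 1 signalling member was at -1 or below.

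**Figure D3:**
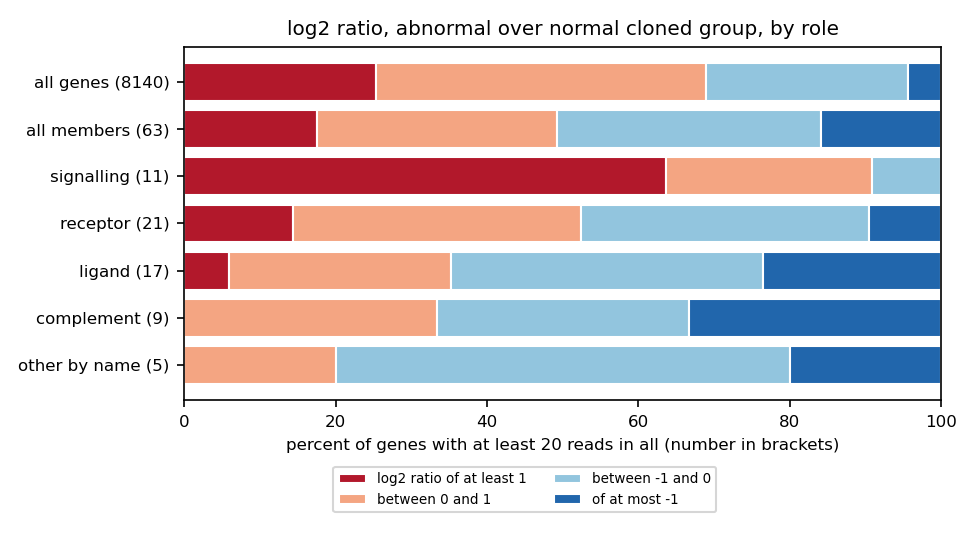
Percent of genes with at least 20 reads in all (horizontal axis) in 4 classes of log2 ratio, abnormal over normal cloned group, for all genes, all members and each role. The signalling bar is mostly in the highest class (7 of 11) and the complement bar has no gene in it.

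Transcript length moved with the direction. The 63 members had a median length of 1279 bases against 1602 bases for the 8140 genes. Of the 32 members up to the median length 12 were higher in the abnormal library, and of the 31 longer ones 19 were. Genes of any function with 20 reads up to the depth of the deepest member showed the same order, with 62.1% higher among those up to 1279 bases and 73.9% among the longer ones. The part of length in the split between roles was not tested.

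CCL2, the chemokine that recruits monocytes, was the only ligand called and had the largest difference among the 17 ligands with at least 20 reads. CCL2 (chr12:38372460-38374364 in Sscrofa9) had 12 reads (abnormal) against 43 (normal), 2.54 against 8.89 RPKM. Its log2 ratio was -1.81 with a 95% exact interval of -2.87 to -0.86, at an FDR of 0.000145 in the Audic-Claverie test with Benjamini-Hochberg adjustment. This interval, like all those given here, covers counting error only.

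MIF, the macrophage migration inhibitory factor, and the chemokine CCL21, which guides lymphocytes and dendritic cells to lymph vessels, were the ligands with the most reads. MIF had 219 reads in the abnormal library against 360 in the normal one, 57.0 against 91.8 RPKM, a log2 ratio of -0.69 (-0.94 to -0.44). CCL21 had 240 and 315 reads, 44.1 against 56.7 RPKM, a log2 ratio of -0.36 (-0.61 to -0.11). A CCL14-like chemokine (ENSSSCG00000017703) had 47 and 70 reads, 33.2 against 48.4 RPKM, with a log2 ratio of -0.54 whose interval reached from -1.11 to 0.01. All 3 were lower in the abnormal library by less than a ratio of 2 and were not called.

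Of the 17 chemokines 9 had at least 20 reads, and 8 of these 9 were lower in the abnormal library, with a median log2 ratio of -0.54. The intervals of 4 lay wholly below 0 and that of 1 wholly above. Such intervals were not counted over all genes, so these counts have no background beside them. CXCL10, which attracts activated T cells, had 8 and 22 reads, a log2 ratio of -1.43 (-2.81 to -0.21). The exception was a CCL26-like chemokine with 17 abnormal against 5 normal reads, at a log2 ratio of 1.80 (0.30 to 3.59). The growth factor of granulocytes CSF3 had 7 and 19 reads, a log2 ratio of -1.41 (-2.90 to -0.10). CXCL10, the CCL26-like gene and CSF3 were too shallow for a call at their ratios.

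Most of the chemokines lay in clusters of neighbours, which did not all go the same way. On chromosome 12, between 37243337 and 38374364, 7 chemokines including CCL2, CCL4, CCL8 and the CCL14-like gene held 107 reads (abnormal) against 176 (normal), and all 4 of them with at least 20 reads were lower in the abnormal one. On chromosome 10, between 30537652 and 30598970, CCL21, CCL19 and CCL27 stood next to IL11RA and a further IL11RA-like entry, with 586 and 810 reads, and all 4 with at least 20 reads were lower. CCL19, which shares its receptor with CCL21, had 9 and 24 reads there, a log2 ratio of -1.38 (-2.67 to -0.23). On chromosome 8 CXCL9 and CXCL10 together held 9 and 24 reads. On chromosome 3 the CCL26-like gene and a CCL24-like gene went the other way, with 21 reads (abnormal) against 8 (normal). Members outside the rule for named genes, such as CCL19 and the others given to complete a family, were picked with their values known.

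The interleukins themselves were scarcely read. Of 13 interleukin genes 4 had at least 20 reads, namely IL16, an IL17B-like gene, IL33 and IL18, with 112 and 87 reads over all 13. These 4 were higher in the abnormal library, with log2 ratios of 0.37 to 0.91 and intervals that all held 0, and 2 of them turned lower under TMM scaling. The inflammatory cytokines IL6, IL-1 beta and TNF and the anti-inflammatory IL10 were at the limit of detection: IL6, the IL-1 beta entry and IL10 had a single read each, from the normal library, and TNF had a single read, from the abnormal library. A count of 0 allows up to 3 reads, which is 0.470 RPM (the reads scaled to library depth alone) for the abnormal library and 0.460 RPM for the normal, so no difference in these cytokines was detectable at this depth.

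**Figure D4:**
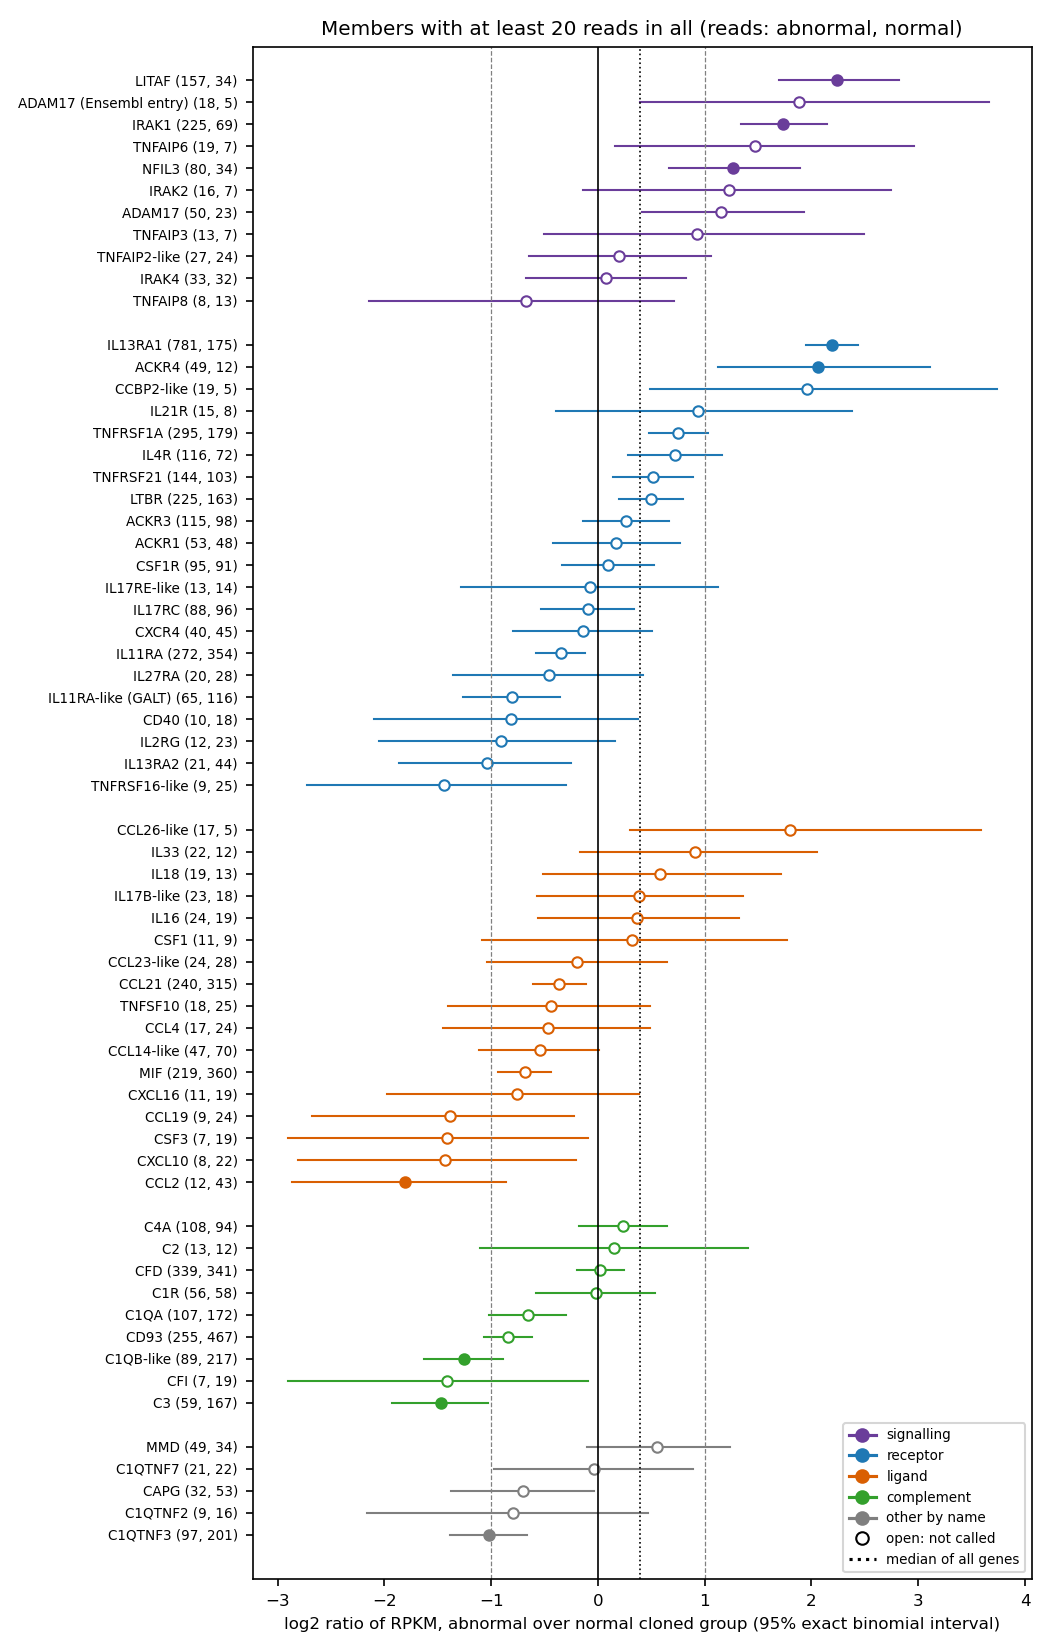
Horizontal axis, log2 of the RPKM ratio between the abnormal and the normal cloned group, for the 63 members with at least 20 reads, by role. Lines are 95% exact binomial intervals and brackets give reads in the abnormal and normal library. Filled points are called and the dotted line is the median of all genes with at least 20 reads, 0.39. The 5 filled points to the right are LITAF, IRAK1, NFIL3, IL13RA1 and ACKR4, and the 4 to the left are CCL2, C1QB-like, C3 and C1QTNF3.

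IL13RA1, the receptor chain that binds IL-13 and pairs with IL4R, was the deepest member and, among receptors with at least 20 reads, the one with the largest difference. IL13RA1 (chrX:97193929-97240532) had 781 reads in the abnormal library against 175 in the normal one, 74.4 against 16.3 RPKM, a log2 ratio of 2.19 (1.95 to 2.43). In RPKM it was the first of the 136 members in the abnormal library and the ninth in the normal one. It also set the sum of the receptors, which was 2596 reads against 1794 with it and 1815 against 1619 without it. Without IL13RA1 the members as a whole had 4538 abnormal against 4892 normal reads.

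The other chains of the same receptor system went by smaller amounts and in both directions. IL4R had 116 and 72 reads, 7.80 against 4.74 RPKM, a log2 ratio of 0.72 (0.28 to 1.16). IL13RA2, a chain that binds IL-13 and has been described as a decoy, had 21 and 44 reads, 2.29 against 4.70 RPKM, a log2 ratio of -1.04 (-1.86 to -0.26). In RPKM the ratio of IL13RA1 to IL13RA2 was 32.4 for the abnormal and 3.47 for the normal library. Neither IL4R nor IL13RA2 was called, although IL13RA2 was called down once the libraries were scaled by the median ratio.

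The receptor IL11RA, which binds the cytokine IL-11, was the second receptor by reads. It had 272 reads (abnormal) against 354 (normal), a log2 ratio of -0.35 (-0.58 to -0.12), so it was slightly lower. Beside it on chromosome 10 an entry named IL11RA-like in the files but GALT in the RefSeq table had 65 and 116 reads, a log2 ratio of -0.80. Which gene these reads belong to is therefore uncertain.

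Of the 19 members of the TNF receptor family 5 had at least 20 reads. By the files' names 2 of the 19, with 1 read each, are receptors, but the RefSeq table names them as the ligands TNFSF4 and TNFSF8. The family summed to 740 reads in the abnormal library against 508 in the normal one. TNFRSF1A, the main receptor of TNF, had 295 and 179 reads, 24.1 against 14.3 RPKM, a log2 ratio of 0.75 (0.48 to 1.03). The lymphotoxin receptor LTBR had 225 and 163 reads at a log2 ratio of 0.50, and TNFRSF21, a death receptor, 144 and 103 at 0.51. These 3 were higher in the abnormal library by ratios under 2 and were not called. CD40, which activates B cells and macrophages, had 10 and 18 reads at a log2 ratio of -0.82 (-2.09 to 0.38), an interval that held 0. A TNFRSF16-like gene (LOC100516109) had 9 and 25 reads at a log2 ratio of -1.44 (-2.73 to -0.30). Both ratios were below 0 and neither gene was called. FAS had 3 reads, all from the abnormal library.

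All 4 atypical chemokine receptors, which bind chemokines and remove them without signalling for migration, were higher in the abnormal library, with 236 reads against 163. ACKR4 (ENSSSCG00000011630, listed as C-C chemokine receptor type 11, chr13:60583954-60589111), a scavenger of CCL19, CCL21 and CCL25, had 49 and 12 reads, 4.16 against 0.998 RPKM. Its log2 ratio was 2.06 (1.13 to 3.11) and it was called up. A chemokine-binding protein 2-like gene (LOC100153344) had 19 and 5 reads at a log2 ratio of 1.96 (0.49 to 3.73), while ACKR3 had 115 and 98 and ACKR1 53 and 48 reads. ACKR3 and ACKR1 turned lower when the 0.36 shift was removed, so the family had 2 higher and 2 lower members under that scaling.

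The receptors that signal for migration were mostly shallow. CXCR4, the receptor of CXCL12, had 40 and 45 reads, and the other 7 chemokine receptors each had fewer than 20 reads. CSF1R, the receptor by which macrophages are maintained, had 95 abnormal against 91 normal reads, a log2 ratio of 0.09. The 5 IL-17 receptors summed to 125 reads in each library. IL1RL1, the receptor of IL-33, had 8 reads, all from the abnormal library, and was not deep enough for a call.

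Of the 14 signalling members 3 were called up, all among the 11 with at least 20 reads, beside 18.5% of all genes with at least 20 reads. LITAF (LOC100518302, chr3:28184283-28219364), an endosomal protein named for the induction of TNF by lipopolysaccharide, had 157 reads (abnormal) against 34 (normal), 24.7 against 5.24 RPKM. Its log2 ratio was 2.24 (1.70 to 2.82), the largest of the 63 members. IRAK1 (chrX:122830457-122837020), the kinase that relays interleukin-1 and Toll-like receptor signals, had 225 and 69 reads, 14.2 against 4.28 RPKM, a log2 ratio of 1.74 (1.34 to 2.15). NFIL3 (chr14:2992835-2994223), a transcription factor under cytokine control, had 80 and 34 reads, 9.03 against 3.76 RPKM, a log2 ratio of 1.27 (0.67 to 1.89). The calls of LITAF and IRAK1 held under each rescaling of the libraries, and that of NFIL3 was lost under all 3.

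The kinases of the IRAK family differed among themselves. IRAK4, which acts before IRAK1, had 33 and 32 reads (log2 ratio 0.08), and IRAK2 had 16 and 7 (log2 ratio 1.22). In RPKM the ratio of IRAK1 to IRAK4 was 5.33 for the abnormal and 1.68 for the normal library. The protease ADAM17, which sheds TNF from the cell surface, was listed as a pair of overlapping entries on opposite strands of chromosome 3, with 50 and 23 reads and with 18 and 5 reads. Both were higher in the abnormal library, at log2 ratios of 1.15 and 1.88, and since strand was not stated to be used, reads of the overlap cannot be assigned to either with certainty.

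Genes named for their induction by TNF lay on both sides of 0. TNFAIP6, which binds hyaluronan, had 19 and 7 reads and TNFAIP3, the brake on NF-kB, 13 and 7. A TNFAIP2-like gene had 27 and 24 reads, and TNFAIP8 had 8 and 13. None of these 4 was called, and the intervals of the last 3 held 0.

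The wider pathway from Toll-like and TNF receptors to NF-kB was read from a list of 60 genes, of which 38 were found and 5 are members. Of these 38, 6 were called up and none down in the Audic-Claverie test, and all 6 were among the 31 with at least 20 reads. This is to be read beside the 18.5% called up of all genes with at least 20 reads. With an assumed biological coefficient of variation of 0.2 in edgeR's exact test 1 call was left. The 6 were IRAK1, the kinase MAP3K7 and its partner TAB2, and all 3 subunits of the IKK complex. MAP3K7 had 143 and 27 reads at a log2 ratio of 2.44, and TAB2 229 and 87 at 1.43. CHUK had 38 and 7 reads, IKBKB 23 and 3, and IKBKG 162 and 57, with log2 ratios of 2.47, 2.97 and 1.54. The genes of the list with the most reads were close to equal in the libraries or moderately higher: NFKBIA, the inhibitor that NF-kB itself induces, had 645 and 691 reads, CFLAR 274 and 299, and NFKB1 288 and 210. Of the 31 with at least 20 reads 23 were higher and 8 lower. Their median log2 ratio was 0.64, against 0.39 for all genes with at least 20 reads.

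Of the 16 complement genes 9 had at least 20 reads, and of these 9 none had a log2 ratio above 0.23. The C1QB-like gene (LOC100519032, chr6:55781457-55783226), which codes for a chain of C1q, had 89 reads in the abnormal library against 217 in the normal one, 15.2 against 36.2 RPKM. Its log2 ratio was -1.25 (-1.63 to -0.89) and it was called down. C1QA, the next chain of the same molecule and its neighbour on chromosome 6, had 107 and 172 reads, 19.8 against 31.2 RPKM. Its log2 ratio was -0.65 (-1.02 to -0.30), lower without passing the ratio of 2.

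C3 (chr2:50094164-50127406) had 59 abnormal against 167 normal reads, 1.86 against 5.16 RPKM. Its log2 ratio was -1.47 (-1.92 to -1.03) and it was called down. CFD, the factor D protease of the alternative pathway that fat tissue secretes in quantity, was the complement gene with the highest RPKM, and it was level on the deposited scale. CFD had 339 and 341 reads, 47.5 against 46.8 RPKM, at a log2 ratio of 0.02 (-0.20 to 0.24), which turned to -0.34 when the shift of all genes was removed. Of the adipocyte markers the 2 found of 4 had 3 reads in all, each from the abnormal library.

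CD93, which the files name as the C1q receptor and which endothelial and myeloid cells carry, had 255 and 467 reads, 15.4 against 27.7 RPKM, a log2 ratio of -0.84 (-1.07 to -0.62). It was lower by less than a ratio of 2 and not called on the deposited scale, and it was called down under each of the 3 rescalings. C4A had 108 and 94 reads and C1R 56 and 58. CFI, the protease that cuts C3b, had 7 and 19 reads, a log2 ratio of -1.41. The late components C5, C7, C8G and C9 had at most 9 reads in a library, too few for a comparison.

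Regulators hold complement in check on cells and in plasma. Of a list of 20 regulators, receptors and recognition proteins 12 were found, 2 of them members, and none was called in either direction by the Audic-Claverie test or the edgeR alternatives, though CD93 was when the libraries were rescaled. SERPING1, the inhibitor of C1, had 1334 and 1302 reads, a log2 ratio of 0.07. CD59, which blocks the terminal complex, had 1273 and 873 reads at a log2 ratio of 0.58, and clusterin (CLU) 197 and 212 at -0.07. Each of these 3, the deepest of the list apart from the member CD93, had more reads in both libraries than C3. CD93, with 255 and 467 reads, was deeper than CLU. Others such as C4BPA and C4BPB had 1 read each.

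Among genes that share only a word of the name, C1QTNF3 was called down. C1QTNF3 (chr16:17548763-17575781), a secreted protein of the C1q and TNF-related family that fat cells and fibroblasts make, had 97 and 201 reads, 5.01 against 10.2 RPKM, a log2 ratio of -1.02 (-1.39 to -0.66). Its ratio lay just past 2, and the call was lost with a pseudocount of 1 RPKM. The 6 genes of that family summed to 154 reads (abnormal) against 256 (normal). CAPG had 32 and 53 reads at a log2 ratio of -0.70 (-1.38 to -0.04), and MMD, a membrane protein named for monocyte maturation, 49 and 34 at 0.56 (-0.10 to 1.23).

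General leukocyte markers were lower beside the lower ligands and complement genes, and macrophage markers were split. The 4 general leukocyte markers found of 7 summed to 19.8 RPKM in the abnormal and 34.5 RPKM in the normal library, 3 of them lower: PTPRC (CD45) had 5 and 22 reads, TYROBP 26 and 47 and FCER1G 45 and 82, while LCP1 had 28 and 26. The 7 macrophage and monocyte markers found of 10, which include the member CSF1R, summed to 16.7 and 23.7 RPKM. Of the 6 with at least 20 reads 3 were lower, CTSS with 42 and 78 reads, AIF1 with 19 and 44 and CD14 with 21 and 37, and 3 were higher, MRC1 with 34 and 19, ITGAM with 15 and 10 and CSF1R with the counts given above. None of these markers was called.

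The other lists were summed in the same way. Neutrophil markers summed to 2.24 and 2.95 RPKM and T and B cell markers to 2.68 and 3.25 RPKM, with no marker of either list at 20 reads. Endothelial markers summed to 44.1 and 41.8 RPKM, fibroblast markers to 1358 and 1510 RPKM and erythroid markers to 479.6 and 693.3 RPKM. The 4 endothelial markers found were 2 higher and 2 lower, and the 5 fibroblast markers 1 higher and 4 lower. HBB alone gave 471.6 and 686.4 RPKM of the erythroid sums. Of the 3 erythroid markers found 2 were higher in the abnormal library and only HBB was lower. Liver and plasma protein transcripts summed to 43.1 and 62.8 RPKM, and of the 3 with at least 20 reads 2 were lower and 1 higher. Albumin (ALB) had 12 reads in the abnormal library against 271 in the normal one and was called down. SERPINA1 had 14 and 38 reads, and APOA1, the marker with the highest RPKM of that list, had 298 and 281. The part of these cell types in the values of CCL2, C1q and C3 was not tested.

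**Figure D5:**
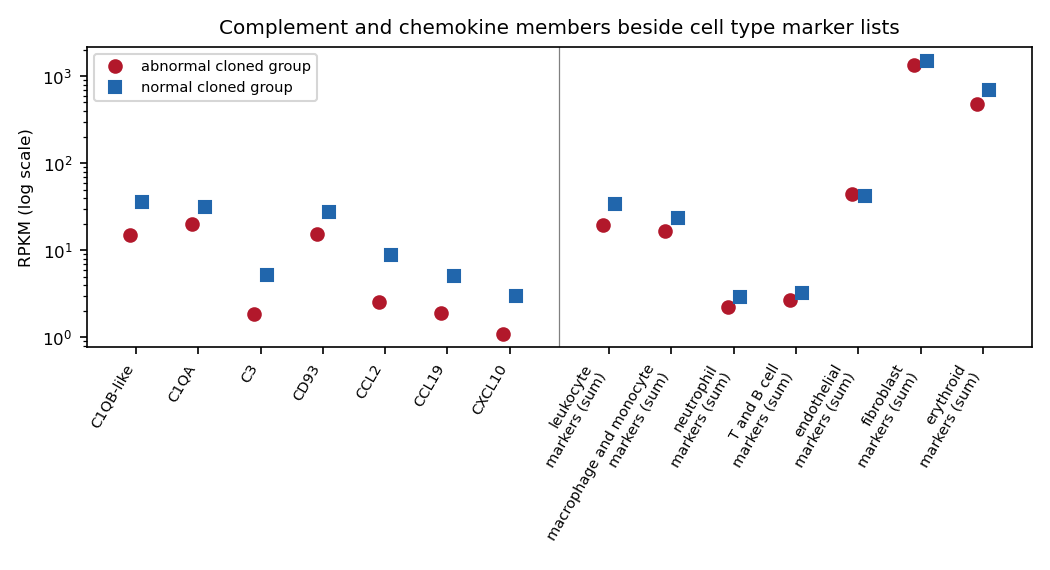
RPKM on a log scale (vertical axis) of 7 complement and chemokine members, left, and the summed RPKM of 7 cell type marker lists, right, in the abnormal (circles) and normal (squares) cloned group, 1 library each. The 7 members shown are all lower in the abnormal group, and members that were level or higher, such as CFD and the CCL26-like gene, are not shown. Every marker sum is also lower except the endothelial one, which is 44.1 against 41.8 RPKM. The markers within a list did not all follow its sum. Of the erythroid markers 2 were higher and 1 lower, and of the macrophage markers with at least 20 reads 3 were higher and 3 lower. The neutrophil sums rest on 7 and 11 reads and the T and B cell sums on 21 and 27.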

How the data were processed

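The authors sequenced pooled mRNA at 1 library per group, aligned them with SOAPaligner/soap2 (no more than 2 mismatches) against the transcripts of Sscrofa9, and deposited the unnormalized count of unique reads of each transcript. The deposited RPKM divides that count by transcript length and total unique reads. Genes missing from 1 table were taken as 0 reads. Reads of near-identical copies, such as the pairs of IL11RA, ADAM17, TNFRSF11B and C3 entries, can be split or lost.

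Groups came from the sample titles. No replicate model can be fitted, so the counts of all 12535 genes were compared by a 2-sided Audic-Claverie test with Benjamini-Hochberg adjustment (scipy 1.17.1), tested on simulated data, and called where the FDR was 0.001 or lower and the RPKM differed by a log2 of 1 or more. Where 1 library had 0 reads, 0.001 RPKM was used for the call. Intervals are 95% Clopper-Pearson. Alternatives were 3 rescalings, Fisher's exact test, edgeR 4.0.16 with an assumed variation, other thresholds, a minimum of reads and a pseudocount. Named members were those called, the 3 with the most reads per role, and the 5 highest and 5 lowest ratios among members with at least 20 reads. The members, roles and lists were chosen with earlier results of these data known. Symbols came from RefSeq tables (105 members) or the protein names.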

Additional observations from a re-analysis of the deposited data

How the results depend on the processing

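No paired analysis was possible because each group was 1 library. Against 5 members up and 4 down, scaling by the median ratio of all genes gave 9 down, TMM scaling gave 9 down, an FDR of at most 0.05 gave 10 up and 8 down, and edgeR's exact test gave 2 up (LITAF and IL13RA1) and 0 down with an assumed biological coefficient of variation of 0.2 and 0 up and 0 down with 0.4. The genes added as down by the median ratio were CD93, IL13RA2, MIF, C1QA and the IL11RA-like entry. Over all genes the calls were 812 up and 498 down by the median ratio, 751 and 548 by TMM, 987 and 369 without mitochondrial transcripts, 243 and 20 with the assumed variation of 0.2, 2 and 1 with 0.4, and 342 down at an FDR of at most 0.05. The NF-kB pathway list had 1 gene up with a variation of 0.2, 0 with 0.4 and 10 at an FDR of at most 0.05, and the complement regulators had 1 down (CD93) under each of the 3 rescalings. The median log2 ratio of all genes was 0.034 by the median ratio, 0.00023 by TMM, 0.15 without mitochondrial transcripts, 0.3596 over genes that both libraries covered with 10 reads or more, 0.32 with a pseudocount of 1 and 0.34 without a minimum of reads. CFD changed sign to -0.34 by the median ratio, -0.37 by TMM and -0.22 without mitochondrial transcripts. Exchanging the libraries in the Audic-Claverie test and leaving out 3 entries that RefSeq names otherwise were added after seeing the data and left 5 members up and 4 down. Depth limits which members could be called, and for any called gene the spread between piglets is unknown.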
